A study of Mus musculus with 10 samples.

Results

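Metallothioneins are small cysteine-rich proteins that bind zinc and copper. Transcripts of the 3 metallothionein genes Mt1, Mt2 and Mt3 were followed here, out of 30406 genes that all libraries listed, in single cells of the medial prefrontal cortex of mice that ranked high or low in a social hierarchy. The rows with these 3 symbols were taken from the deposited gene lists. The genes were chosen by a measured value, since Mt2 stood out between ranks in near-projecting neurons of layers 5 and 6 (L5/6 NP) in an earlier analysis of the same libraries. In that subclass the values below are a description only, and the rank differences in the other classes come from the same libraries and are not independent of that choice.

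The mice were C57BL/6N males over 2 months old. Their rank came from encounters of paired mice inside a narrow tube, where the animal pushed back is the loser, and the cortex was taken 1 day after the last of these tests. Dominant animals (Rank1) and subordinate animals (Rank4) gave 5 droplet libraries each. A library pooled 2 or 3 mice, so the library was the replicate, and p-values measure the spread between such pools. The labels name no genetic change or treatment in either group, and all tissue was dissociated with papain at 37 °C.

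Metallothioneins buffer zinc and copper ions and take up reactive oxygen species through their cysteines. Mt1 and Mt2 are induced together in many tissues by metals, through the factor MTF1 and its metal response elements, and also by glucocorticoids and inflammatory signals. Mt3 is enriched in the brain, was first described as a growth inhibitory factor, and is much less inducible by metals. In the brain Mt1 and Mt2 are known best from astrocytes, the glia that wrap synapses and vessels, while Mt3 has been described in astrocytes and in zinc-rich neurons.

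The 3 genes lie on the plus strand of chromosome 8 within 43.1 kb, counted from the start of the fourth family member Mt4 to the end of Mt1. In GENCODE M21 on build GRCm38, Mt3 (ENSMUSG00000031760) spans chr8:94152607-94154146, Mt2 (ENSMUSG00000031762) spans chr8:94172664-94173568 and Mt1 (ENSMUSG00000031765) spans chr8:94179082-94180327. Each has 3 exons. The coding sequence holds 183 bases in Mt1 and Mt2 and 204 bases in Mt3. Aligned over the coding sequence, Mt1 and Mt2 were 79.2% identical, Mt1 and Mt3 68.4%, and Mt2 and Mt3 68.8%. The longest run shared by Mt1 and Mt2 transcripts was 20 bases, and by Mt1 and Mt3 27 bases. The single-exon gene Gm45774 lies on the opposite strand at chr8:94170748-94173412 and overlaps Mt2, and the strand setting of the counting is not given in the sources used here.

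The stretches upstream of the start sites are shown because they carry the sequence features by which these genes are usually told apart. They come from RefSeq's promoter table on GRCm38.p6 and are written 5′ to 3′ on the plus strand. Capitals mark matches to the core of the metal response element, written as TGCGCNC or TGCACNC and searched on both strands. For Mt1 only the 30 bases before the GENCODE start given above are printed. The RefSeq start of Mt1, used for its count below, lies downstream of that GENCODE start. The RefSeq start of Mt2 lies upstream of the GENCODE start given above.
Mt1, chr8:94179052-94179081: gggcggtcccgctgTGCACACtggcgctcc
Mt2, chr8:94172368-94172617: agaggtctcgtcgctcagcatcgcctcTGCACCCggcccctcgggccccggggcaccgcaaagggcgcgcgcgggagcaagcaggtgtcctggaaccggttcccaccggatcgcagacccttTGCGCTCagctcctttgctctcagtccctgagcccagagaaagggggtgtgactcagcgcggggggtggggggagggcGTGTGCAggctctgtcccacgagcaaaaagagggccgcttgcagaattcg
Mt3, chr8:94152357-94152606: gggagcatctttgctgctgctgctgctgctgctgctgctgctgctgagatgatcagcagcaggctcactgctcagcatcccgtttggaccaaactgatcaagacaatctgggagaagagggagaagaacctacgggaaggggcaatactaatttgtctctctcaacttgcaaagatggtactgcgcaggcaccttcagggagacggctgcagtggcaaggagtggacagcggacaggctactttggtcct

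Within the 250 bases before the RefSeq start, Mt2 held 3 such cores, Mt1 held 1 and Mt3 held 0. Stretches past that start or farther upstream were not searched. These are thus not counts over a whole promoter, and they depend on the annotated start. Of 32851 windows of this length before mouse genes, 21.4% held at least 1 core and 1.26% held at least 3. Mt2 also held 1 match to the core of the antioxidant response element, TGACNNNGC, which 10.2% of the windows held. No window of the 3 genes matched the palindromic glucocorticoid response element, which 0.00913% of all windows held. A match describes letters in the window and is not a measured binding site.

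After filtering, 44462 cells were kept, between 1445 and 11717 per library, with a median of 1267 to 2640 unique molecular identifiers (UMIs, 1 per captured RNA molecule) per cell. Clusters were named from marker genes, and 4861 cells stayed unnamed. Replicates 1 to 3 of both ranks came from one version of the counting software and replicates 4 and 5 from another, so the version was a covariate in the rank tests. Libraries with the same replicate number deviated together from their group means, and still did with the means taken within a software version, less closely over all kept cells for replicates 2 to 5, so a fit with the number as a block is given beside each result whose call it changed. Any pair of libraries shared at most 0.938% of the barcodes of the smaller one. Levels are CPM, counts scaled to a common library total, of the UMIs summed over the cells of 1 class in 1 library, with at least 20 cells, and are given as mean ± SD over libraries.

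Astrocytes held most of the metallothionein transcripts. They made up 18.5% of the kept cells and held 62.7% of the 123363 Mt1 UMIs, 67.3% of the 27547 Mt2 UMIs and 52.2% of the 104398 Mt3 UMIs. Excitatory neurons made up 30.7% of the cells and held 8.41%, 5.25% and 20.7% of these UMIs.

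Mt1 in astrocytes stood at 5190 ± 2032 CPM (n = 10), with a lowest library of 1914 CPM and a highest of 8037 CPM. Smooth muscle cells of the vessel wall followed with 2622 ± 1182 CPM (n = 5) and perivascular macrophages with 2617 ± 1534 CPM (n = 3). Astrocytes exceeded smooth muscle cells in 5 of 5 libraries that held enough of both. The gap between smooth muscle cells and perivascular macrophages, 4.61 CPM, was far below the spread between libraries.

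Below these, Mt1 fell to a middle range of 6 classes. Endothelial cells had 951 ± 308 CPM, microglia 856 ± 412 CPM and oligodendrocytes 722 ± 301 CPM (n = 10 each). Oligodendrocyte precursors had 635 ± 255 CPM, pericytes 626 ± 350 CPM (n = 10 each) and committed oligodendrocyte precursors 617 ± 286 CPM (n = 6). From endothelial cells down to committed precursors, each step to the next class was smaller than the larger of the 2 SDs. Within libraries, endothelial cells exceeded oligodendrocytes and oligodendrocyte precursors in 10 of 10, microglia in 8 of 10 and pericytes in 9 of 10. Inhibitory neurons, at 249 ± 200 CPM, and excitatory neurons, at 224 ± 141 CPM (n = 10 each), were lowest, and committed precursors exceeded inhibitory neurons in 6 of 6 libraries.

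Mt2 was also highest in astrocytes. Its level was 1210 ± 633 CPM in astrocytes (n = 10), 391 ± 284 CPM in perivascular macrophages (n = 3), 346 ± 158 CPM in smooth muscle cells (n = 5) and 243 ± 111 CPM in endothelial cells (n = 10). Smooth muscle cells exceeded endothelial cells in only 2 of 5 shared libraries, so the order of these 2 classes was not steady. Endothelial cells exceeded microglia, at 136 ± 69.8 CPM, in 10 of 10 libraries. The remaining glia and pericytes lay between 98.1 and 126 CPM, inhibitory neurons at 48.1 ± 56.5 CPM and excitatory neurons at 33.7 ± 41.1 CPM, with steps below their SDs.

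Mt3 was ordered differently below astrocytes. Astrocytes had 3457 ± 1404 CPM and oligodendrocyte precursors came next with 668 ± 302 CPM, below astrocytes in 10 of 10 libraries and above pericytes in 10 of 10 (n = 10 each). Pericytes, oligodendrocytes, microglia, inhibitory neurons and excitatory neurons lay between 404 and 438 CPM and could not be ordered. Endothelial cells had 325 ± 275 CPM, from 68.8 to 854 CPM, and smooth muscle cells had 153 ± 120 CPM (n = 5). These last 2 means rest on different libraries, and in the 5 libraries with both classes endothelial cells were higher in 2, so neither could be called the lowest.

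**Figure D1:**
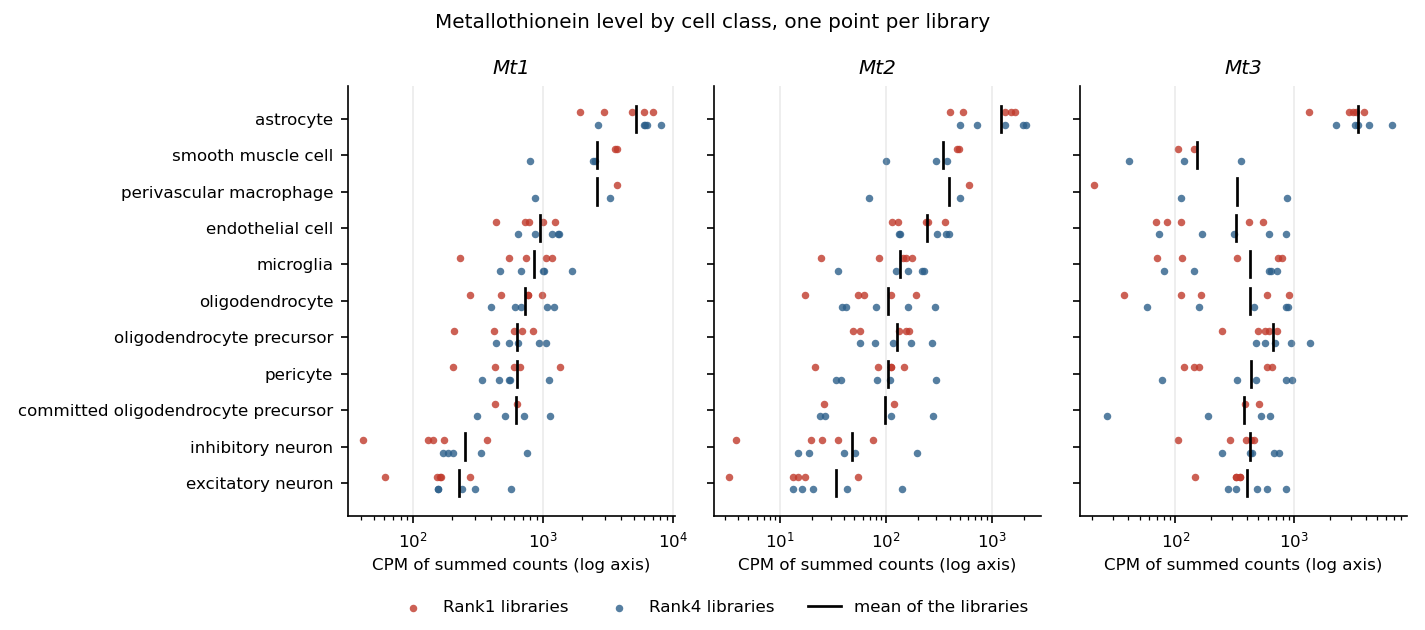
Level of Mt1, Mt2 and Mt3 in each cell class in CPM of summed counts on a log axis; each point is 1 library, coloured by rank, and the black bar is the mean over libraries. Astrocytes are highest for all 3 genes, and the means of smooth muscle cells and perivascular macrophages follow for Mt1 and Mt2. Means of classes with fewer points rest on fewer libraries, and smooth muscle cells, with the lowest mean for Mt3, were below endothelial cells in only 2 of 5 shared libraries.

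The share of cells with at least 1 UMI followed the levels once depth was equalised. Thinned to 1000 UMIs per cell, 92.1% of astrocytes and 20.9% of excitatory neurons had an Mt1 UMI (mean over libraries; 94.4% and 49.8% unthinned, at median depths of 1658 and 3362 UMIs). For Mt2 the thinned shares were 58.3% and 4.52% (70.0% and 13.1% unthinned), and for Mt3 87.1% and 30.5% (91.0% and 64.8% unthinned). Thinning left 6842 of 8206 astrocytes and 12580 of 13668 excitatory neurons. None of the classes is known to lack these transcripts, so free RNA was gauged with astrocyte markers instead.

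The levels outside astrocytes were set against the astrocyte level of the same library, beside markers of astrocytes. The list of 8 markers included Aqp4 (a water channel), Slc1a3 and Slc1a2 (glutamate transporters), Aldoc, Gja1 and Gjb6 (connexins) and Agt. In excitatory neurons Mt1 stood at 4.44%, Mt2 at 2.57% and Mt3 at 11.6% of the astrocyte level, beside 4.12% for the 8 markers summed. There, Gja1 stood at 0.670%, Aqp4 at 0.940%, Slc1a3 at 1.01% and Slc1a2 at 11.1%. In excitatory neurons as a whole Mt1 and Mt2 were thus within the range of the markers, and Mt3 was close to Slc1a2. In inhibitory neurons Mt3 stood at 12.1%, above Agt at 6.18%, Slc1a2 at 4.65% and the marker sum at 2.49%. In L6 CT neurons the order of Mt3 and Slc1a2 was the other way, with 12.5% for Mt3 and 25.6% for Slc1a2. The same order held in L5/6 NP (13.9% and 25.0%) and L5 IT neurons (8.86% and 10.2%). Mt3 was above Slc1a2 in L2/3 IT, L5 PT and L6 IT neurons.

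Smooth muscle cells, endothelial cells and perivascular macrophages differed from this. In smooth muscle cells Mt1 stood at 43.0% and Mt2 at 25.0% of the astrocyte level, while Mt3 stood at 5.34% and the marker sum at 3.47% (n = 5). In endothelial cells Mt1 stood at 19.3%, Mt2 at 21.6% and Mt3 at 9.48%, with the marker sum at 3.78% (n = 10). In perivascular macrophages, where Agt and Gjb6 were at 0, Mt1 stood at 39.0% and Mt2 at 26.1% (n = 3). Mt1 and Mt2 exceeded the marker sum by a larger factor in these 3 classes than in any other class. Both genes were also above the marker sum in microglia, with 16.2% for Mt1, 11.8% for Mt2 and 4.29% for the sum (n = 10). Oligodendrocytes had 14.1%, 8.12% and 3.82% (n = 10). Pericytes, also cells of the vessel, went the other way, with Mt1 at 12.3% and Mt2 at 8.46%, below the marker sum at 23.2% (n = 10).

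**Figure D2:**
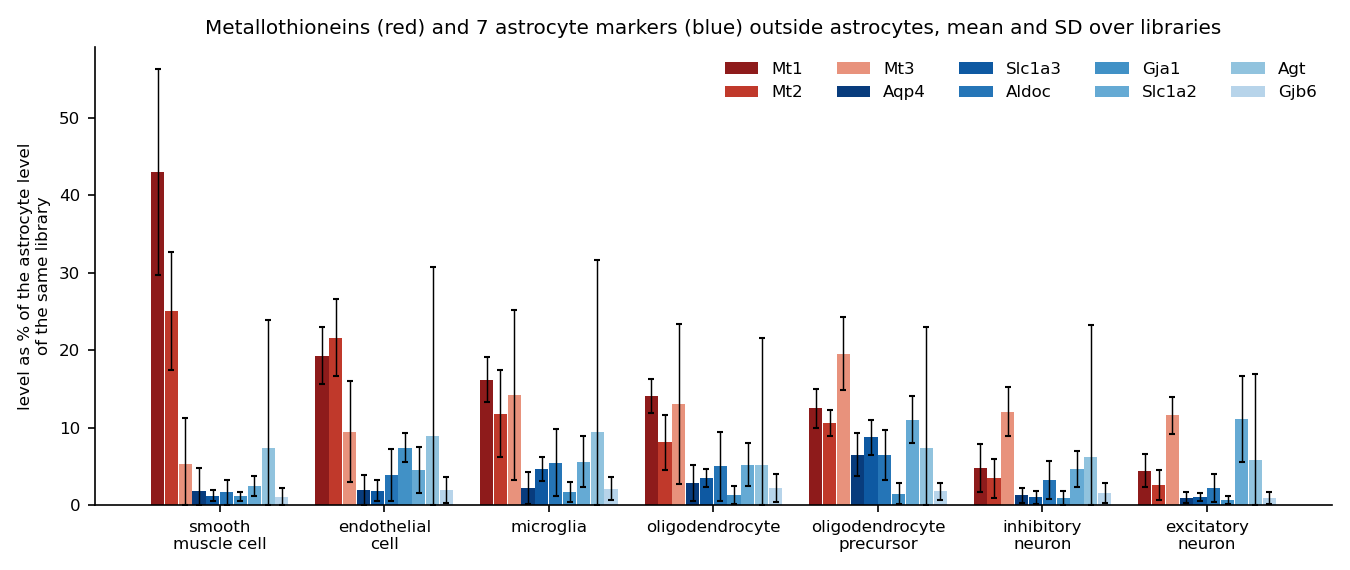
Level of each gene as a percentage of its level in astrocytes of the same library, for the 3 metallothioneins (red) and 7 astrocyte markers (blue) in 7 cell classes; bars are means over libraries and whiskers SDs. Mean levels of Mt1 and Mt2 stand above the 7 markers shown in smooth muscle cells, endothelial cells, microglia and oligodendrocytes. In excitatory neurons Mt3 and the marker Slc1a2 are the highest.

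Within astrocytes the level varied between 3 clusters. Mt1 was 6037 ± 1476 CPM in the cluster led by Aldoc and Id4 (n = 9), 4597 ± 2026 CPM in the cluster led by Aqp4 and Plpp3 (n = 6) and 3275 ± 1703 CPM in the one led by Grin2c and Nwd1 (n = 10). In the same order the means were 1392, 1043 and 768 CPM for Mt2 and 3947, 3684 and 2367 CPM for Mt3, and they rest on different libraries. In the 5 libraries that held both of the first 2 clusters, the Aqp4 cluster was higher in 2 for Mt1, 3 for Mt2 and 2 for Mt3, so these 2 had no steady order. Both were above the Grin2c cluster within libraries, the Aqp4 cluster in 6 of 6 for each gene and the Aldoc cluster in 9 of 9 for Mt1 and Mt2 and 8 of 9 for Mt3. The Grin2c cluster also had the lowest depth, with a median of 1016 UMIs per cell, and the part of depth in this gap was not tested.

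Over the 11 named classes, Mt1 and Mt2 followed each other closely (Pearson r of mean log2(CPM + 1) 0.97), and Mt3 followed neither (r 0.19 with Mt1 and 0.29 with Mt2). Mt2 was the gene most like Mt1 of 4099 compared, followed by Idh2 (a mitochondrial isocitrate dehydrogenase, 0.89), Slc9a3r1, Sdc4 and Scp2. The 5 genes most like Mt2 were Mt1, Slc9a3r1, Idh2, Eci2 and Cat (catalase, 0.84). Mt3 was most like Sfxn5 (0.98), Slc1a2 (0.97), the bicarbonate transporter gene Slc4a4 (0.96), Clu and Leng8. The points share libraries, and astrocytes are the highest point for all 3 genes, so these values are descriptions.

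Over the 10 libraries within a class, Mt1 and Mt2 rose and fell together. In astrocytes r was 0.89 and Spearman's rho 0.88 (adjusted permutation p 0.00268 and 0.00302, n = 10), in endothelial cells 0.89 and 0.94 (adjusted permutation p 0.00198 and 0.00157) and in excitatory neurons 0.98 and 0.93 (adjusted permutation p 0.00072 and 0.00157), with adjustment over 9 relations. These permutations treat the 10 libraries as exchangeable, although same-numbered libraries deviated together and the software versions differed, so the p-values do not allow for that structure. Without the 2 libraries farthest from the median of Mt1, r was 0.76, 0.87 and 0.92 in these classes. Within replicates 1 to 3 of both ranks, r was 0.62, 0.92 and 0.99 (n = 6), and replicates 4 and 5 hold too few libraries for a test.

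The relation of Mt3 to Mt1 was positive in astrocytes and excitatory neurons, while in endothelial cells its sign was not the same in both software versions. The difference between classes was not tested. In astrocytes r of Mt1 with Mt3 was 0.83 and rho 0.92 (adjusted permutation p 0.00268 and 0.00168, n = 10), r was 0.50 without replicate 4 of both ranks, the 2 farthest libraries, and 0.94 within replicates 1 to 3 (n = 6). The value thus moved with which libraries of replicates 4 and 5 entered. In excitatory neurons it was 0.81, rho 0.90 (adjusted permutation p 0.0184 and 0.00189), 0.61 without the 2 farthest and 0.94 within replicates 1 to 3. In endothelial cells r was -0.21 and rho -0.32 (adjusted permutation p 0.565 and 0.369), and within replicates 1 to 3 r was -0.50. The 4 libraries of replicates 4 and 5, too few for a test, gave 0.99. For Mt2 with Mt3, r was 0.53 in astrocytes (rho 0.68), -0.42 in endothelial cells (rho -0.41) and 0.69 in excitatory neurons (rho 0.84), with adjusted permutation p of r at 0.146, 0.245 and 0.0439, and without the 2 farthest libraries -0.11, -0.61 and 0.29. Within replicates 1 to 3 these were 0.73, -0.45 and 0.87, and the endothelial value was 0.78 within replicates 4 and 5 (n = 4).

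Mt1 supplied most of the UMIs of the pair in each of 8 classes, with a share that varied by class. It made up 81.7 ± 4.07% of the Mt1 and Mt2 UMIs in astrocytes, 80.2 ± 3.52% in endothelial cells, 83.9 ± 3.51% in oligodendrocyte precursors, 86.1 ± 4.79% in inhibitory neurons, 86.5 ± 4.45% in microglia, 86.6 ± 4.94% in pericytes, 88.5 ± 5.52% in oligodendrocytes and 89.6 ± 4.56% in excitatory neurons (n = 10 each). The gap between endothelial cells and excitatory neurons, the extremes, was larger than both SDs. The rank means differed by -1.71 to 2.03 percentage points in 8 classes, and the adjusted p was 0.984 in each (two-sided exact permutation test, smallest possible p 0.00794). In astrocytes the share was 79.3 ± 2.71% in replicates 1 to 3 and 85.3 ± 2.96% in replicates 4 and 5. It was 76.0% in replicate 1 of both ranks, the lowest, and 89.5% in replicate 5 of Rank4, the highest.

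The next question was whether social rank went with the level of these genes. In astrocytes the Mt1 level in Rank1 was 4815, 5985, 7056, 1914 and 2969 CPM in replicates 1 to 5, and in Rank4 6296, 6000, 8037, 2674 and 6151 CPM. The groups overlapped widely, while Rank1 was lower in 5 of 5 same-numbered pairs, in replicate 2 by a small margin. Replicate 4 was the lowest of its rank in both groups.

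Mt2 in astrocytes was 1519, 1335, 1650, 406 and 531 CPM in Rank1 and 1983, 1335, 2124, 497 and 725 CPM in Rank4. Mt3 was 3135, 3332, 3869, 1337 and 2887 CPM in Rank1 and 3474, 3254, 4314, 2276 and 6693 CPM in Rank4, where replicate 5 stood highest. Rank1 was lower in 5 of 5 pairs for Mt2, with nearly equal values in replicate 2, and in 4 of 5 for Mt3, and the groups overlapped for both. Of 3651 genes with at least 50 CPM in astrocytes, 7.26% were lower in Rank1 in all 5 pairs.

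The rank difference in astrocytes was not called. By edgeR's quasi-likelihood test with the version as covariate, the log2 difference of Rank1 from Rank4 was -0.47 for Mt1 (standard error 0.29), -0.33 for Mt2 (0.21) and -0.51 for Mt3 (0.33). With the replicate block it was -0.43 for Mt1, -0.31 for Mt2 and -0.46 for Mt3, with Benjamini-Hochberg adjusted p 0.200, 0.277 and 0.169 over 10561 genes. Of these genes, 0% were called lower in Rank1 without the block and 0.218% with it. The size rested in part on Rank4 replicate 5: without that library the unblocked difference was -0.18 for Mt1, -0.22 for Mt2 and -0.11 for Mt3, and without both libraries of replicate 5 the blocked one was -0.27, -0.27 and -0.26.

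Excitatory neurons had larger differences. Mt1 was 276, 165, 153, 61.1 and 161 CPM in Rank1 and 572, 157, 301, 156 and 238 CPM in Rank4. Mt3 was 353, 324, 323, 147 and 349 CPM in Rank1 and 597, 324, 490, 278 and 849 CPM in Rank4. Rank1 was lower in 4 of 5 pairs for both and the groups overlapped: replicate 2 was nearly equal between ranks and replicate 1 of Rank4 was the highest for Mt1.

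Mt2 in excitatory neurons was 54.7, 14.7, 13.1, 3.25 and 16.9 CPM in Rank1 and 142, 13.3, 42.4, 16.0 and 20.5 CPM in Rank4. Replicate 1 was the highest in both ranks, the groups overlapped, and Rank1 was lower in 4 of 5 pairs.

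Without the block none of these was called, at log2 differences of -0.82 for Mt1 (standard error 0.35), -1.07 for Mt2 (0.59) and -0.79 for Mt3 (0.31). With the replicate block all 3 were called lower in Rank1: Mt1 at -0.80 (standard error 0.14, adjusted p 0.0246), Mt2 at -1.07 (0.21, adjusted p 0.0326) and Mt3 at -0.74 (0.13, adjusted p 0.0246) by edgeR's quasi-likelihood test. In the same fits 0% of 11915 genes were called lower in Rank1 without the block and 0.386% with it. Without both libraries of replicate 1, 3 or 5, none of the 3 was called (adjusted p 0.0606 to 0.238, edgeR with the block), and without replicate 4 Mt2 was not (adjusted p 0.0506). Without replicates 1, 3 and 5 in turn, 0 of 12028, 0 of 12418 and 0 of 11517 genes were called lower in Rank1. Without replicate 4 these were 53 of 11590, and without replicate 2 they were 87 of 12407. Over all 5 such fits the blocked difference ran from -0.98 to -0.65 for Mt1, -1.37 to -0.87 for Mt2 and -0.90 to -0.58 for Mt3. Without Rank4 replicate 1 the unblocked Mt2 difference moved to -0.37. The class holds the L5/6 NP cells that the choice of genes came from. With those cells left out, the blocked differences were -0.79 for Mt1, -1.05 for Mt2 and -0.73 for Mt3 (adjusted p 0.0275, 0.0485 and 0.0275, edgeR), where 0.28% of 11781 genes were called lower with the block and 0% without it. In sums over cells, fewer cells that express a gene and less RNA per cell cannot be told apart.

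Inhibitory neurons had Mt1 levels of 369, 173, 141, 41.0 and 131 CPM in Rank1 and 750, 185, 335, 168 and 203 CPM in Rank4. Rank1 was lower in 5 of 5 pairs, as were 5.58% of 4281 genes with at least 50 CPM, and the groups overlapped. The log2 difference was -0.97 (standard error 0.36) without the block and -1.0 (0.16, adjusted p 0.000988, edgeR) with it. Mt2 at -0.92 and Mt3 at -0.70 were not called with the block (adjusted p 0.129 and 0.0522, edgeR), and the Mt2 value without the block was -0.11 without Rank4 replicate 1. With the block Mt3 was called without replicate 2 (-0.80, adjusted p 0.0480) or 3 (-0.88, adjusted p 0.0237) and Mt2 without replicate 5 (-1.19, adjusted p 0.0225). Genes called lower in Rank1 in these fits were 8 of 9104, 4 of 9109 and 9 of 7751. Without both libraries of replicate 1 the blocked Mt1 difference was -1.01 and no longer called (adjusted p 0.0615), in a fit that called 1 of 7990 genes lower. Of 8973 genes, 0% were called lower without the block and 0.078% with it.

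Among vascular cells, Mt1 in endothelial cells was 776, 1000, 1242, 435 and 728 CPM in Rank1 and 1171, 1316, 1323, 642 and 873 CPM in Rank4. Mt3 was 544, 84.9, 68.8, 112 and 415 CPM in Rank1 and 619, 73.5, 168, 310 and 854 CPM in Rank4. Rank1 was lower in 5 of 5 pairs for Mt1 and for Mt2, as were 3.61% of 3633 genes, and in 4 of 5 for Mt3, and the groups overlapped for all 3. The Mt3 level spread more between replicate numbers than between ranks.

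Mt3 in endothelial cells was called lower in Rank1 with the block, at a log2 difference of -0.77 (standard error 0.16, adjusted p 0.0173, edgeR), and not without it (-0.65, standard error 0.64). The unblocked value ran from -1.50 without Rank1 replicate 1 to -0.13 without Rank4 replicate 1, and was -0.32 without Rank4 replicate 5. The blocked one ran from -1.01 to -0.65 without 1 replicate number, and was not called without replicate 3 or 5 (adjusted p 0.0879 and 0.165). Over all genes, 4 of 8693 were called lower in Rank1 without replicate 3 and 7 of 7191 without replicate 5. Mt1 at -0.40 and Mt2 at -0.29 were not called with the block (adjusted p 0.0995 and 0.389, edgeR). Of 7917 genes, 0% were called lower without the block and 0.366% with it.

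**Figure D3:**
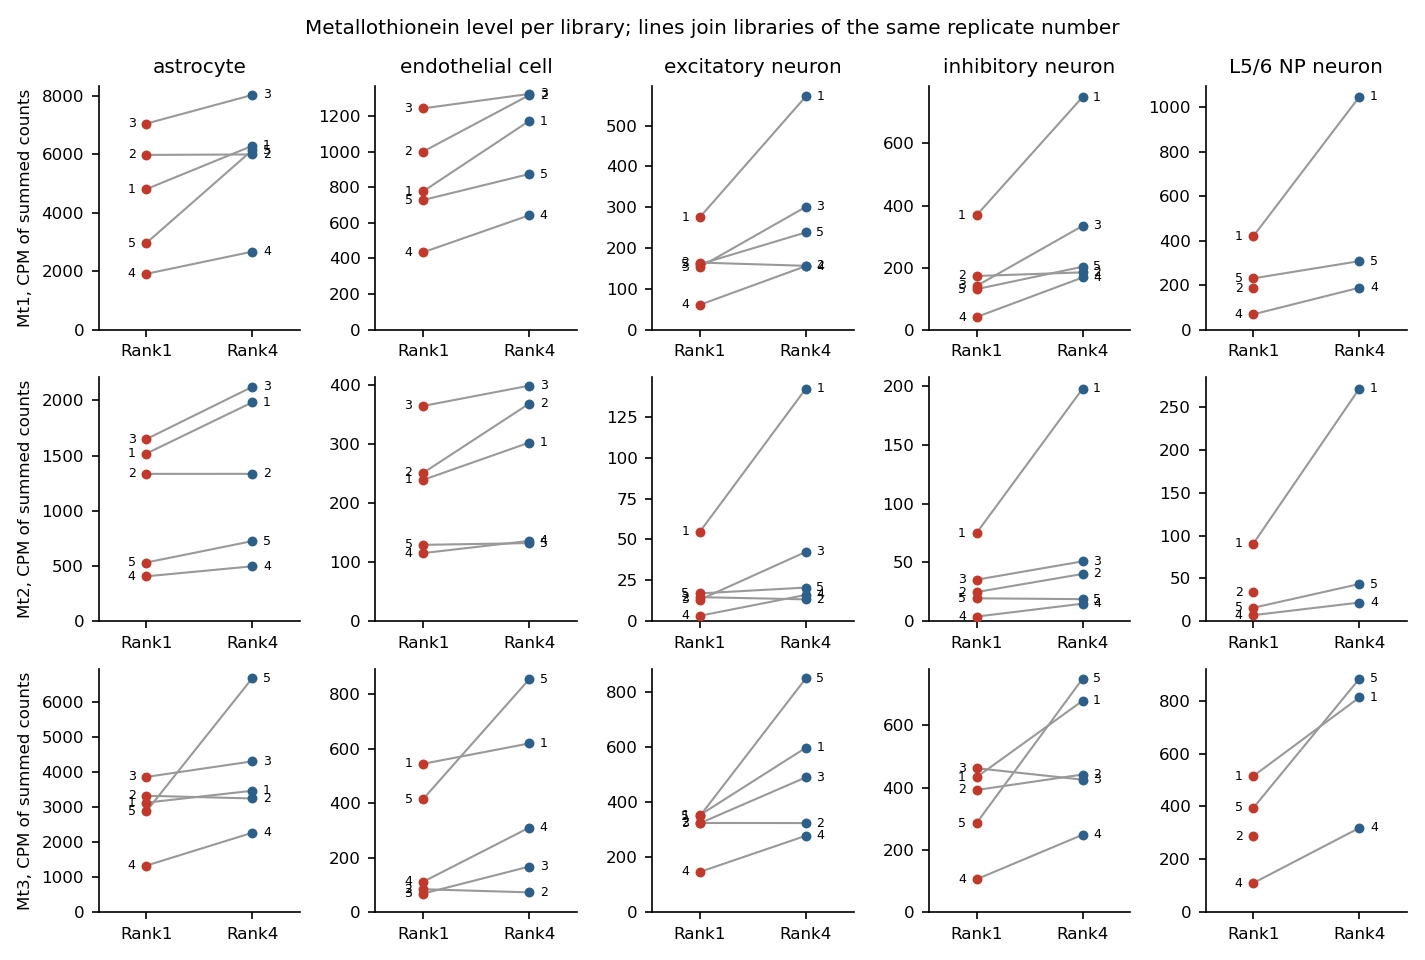
Level of each gene in CPM in Rank1 and Rank4, with a line joining libraries of the same replicate number. Most lines rise from Rank1 to Rank4, while the ranges of the ranks overlap.

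In the remaining glia and in pericytes no member was called with or without the block when all libraries entered, nor was any other gene lower in Rank1 (0% in microglia, oligodendrocytes, oligodendrocyte precursors and pericytes). Log2 differences without the block ran from -0.47 to -0.30 for Mt1 in microglia, oligodendrocytes and oligodendrocyte precursors. Mt1 in pericytes was at 0.0042, and its sign changed with the processing. Mt3 in pericytes was at -0.67 (standard error 0.55) and, leaving out 1 library, ran from -1.21 to -0.15, while with the block it was at -0.72 (adjusted p 0.238, edgeR). Mt3 in oligodendrocyte precursors was at -0.61 (standard error 0.30), and it was called with the block when both libraries of replicate 5 were left out (-0.56, adjusted p 0.0302, edgeR). In that fit 29 of 6472 genes were called lower in Rank1. In the sum of all kept cells of a library, Mt1 was at -0.61, Mt2 at -0.51 and Mt3 at -0.66 without the block, with 0% of 14496 genes called lower, and none of the 3 was among the 0.0069% called with it.

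Counted over the 8 classes, 23 of 24 member tests had a lower level in Rank1, 5 had an unadjusted p under 0.05, and edgeR and DESeq2 both called 0 after adjustment (smallest adjusted p 0.999, edgeR). Of all genes tested in a class, 49.1% to 53.6% were lower in Rank1. In excitatory neurons without the L5/6 NP cells, 258 of 11781 genes were lower with an unadjusted p under 0.05 (edgeR without the block). Without a filter on low counts edgeR called 4 of 24, also without the block: the 3 members in excitatory neurons and Mt1 in inhibitory neurons, where 0.104% and 0.0279% of genes were called lower. With the replicate block edgeR called 5 of 24, also with the L5/6 NP cells left out, and from 1 (without replicate 1) to 6 (without replicate 2) when both libraries of 1 number were left out. Without replicate 1, 0 of 12028 genes were called lower in excitatory neurons, 1 of 7990 in inhibitory neurons and 7 of 7295 in endothelial cells. Without replicate 2 these were 87 of 12407, 8 of 9104 and 43 of 8711. The members share cells and libraries, and these counts repeat 1 set of 10 libraries.

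The excitatory neurons divided into subclasses by cortical layer and projection. In L5/6 NP neurons, the subclass that the choice of genes came from, 4 Rank1 and 3 Rank4 libraries had at least 20 cells. Mt2 was 90.6, 33.8, 6.93 and 15.6 CPM in Rank1 replicates 1, 2, 4 and 5, from 22, 2, 2 and 6 UMIs, and 272, 21.7 and 43.4 CPM in Rank4 replicates 1, 4 and 5, from 59, 7 and 18 UMIs. The groups overlapped, and Rank1 was lower in each of the 3 pairs. The log2 difference was -1.74 for Mt2 and -1.13 for both Mt1 and Mt3, given as a description of the value that led to the choice.

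In pyramidal tract neurons of layer 5 (L5 PT), Mt1 was 71.0, 91.4, 30.4 and 128 CPM in Rank1 replicates 2 to 5 and 265, 144 and 198 CPM in Rank4 replicates 3 to 5. All Rank1 libraries lay below all Rank4 libraries, as for 1.39% of 4325 genes with at least 50 CPM. Without the block the log2 difference was -1.23 for Mt1 (standard error 0.27, adjusted p 0.270) and -0.94 for Mt3 (0.28, adjusted p 0.783), by edgeR's quasi-likelihood test. With it, Mt1 was called at -1.26 (0.20, adjusted p 4.61e-06) and Mt3 at -0.98 (0.16, adjusted p 6.28e-06). Rank1 replicate 2 had no partner and adds nothing to the rank difference in that fit, which rests on 3 pairs. Without Rank1 replicate 5 both genes were called also without the block, at -2.06 for Mt1 and -1.48 for Mt3 (adjusted p 2.22e-06 and 0.0189, edgeR). The share of all genes called in that fit is not given here. Mt2 was below the count filter in this subclass, with 1 to 17 UMIs per library. Without replicate 4 the blocked differences were -0.96 for Mt1 and -0.91 for Mt3, and without replicate 5 Mt3 was at -0.88, none of them called (adjusted p 0.816, 0.448 and 0.105, edgeR). Over all genes, 0 of 6898 were called lower in Rank1 without replicate 4 and 7 of 6771 without replicate 5.

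In intratelencephalic neurons of layers 2 and 3 (L2/3 IT), Mt1 was 297, 147, 155, 55.9 and 160 CPM in Rank1 and 693, 114, 233, 203 and 303 CPM in Rank4. The groups overlapped, and replicate 2 was higher in Rank1. With the block the log2 difference was -0.88 for Mt1, -1.26 for Mt2 and -0.63 for Mt3 (adjusted p 0.00435, 0.00869 and 0.0163, edgeR). In corticothalamic neurons of layer 6 (L6 CT, 4 pairs) it was -1.03, -1.01 and -1.05 (adjusted p 1.08e-05, 0.0373 and 1e-05, edgeR), and in layer 5 intratelencephalic neurons (L5 IT) -0.55, -0.94 and -0.66 (adjusted p 0.0214, 0.0423 and 0.00277, edgeR). Mt2 rested on few UMIs, from 0 to 103 per library in L6 CT, 2 to 169 in L2/3 IT and 5 to 110 in L5 IT.

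Mt2 was not called without replicate 1 in any of these 3 subclasses. Without both of its libraries the blocked difference of Mt2 was -0.83 in L2/3 IT, -0.73 in L6 CT and -0.67 in L5 IT, and none was called (adjusted p 0.368, 0.882 and 0.701, edgeR). Without Rank4 replicate 1 alone the unblocked Mt2 difference was -0.44, -0.21 and -0.27. The Mt2 call was also lost in L6 CT without replicate 4 (-0.86, adjusted p 0.274) and in L5 IT without replicate 3 (-0.86, adjusted p 0.180) or replicate 4 (-0.80, adjusted p 0.0685). Mt1 and Mt3 in L6 CT were called with the block without any 1 of the replicate numbers (largest adjusted p 0.0104 and 0.00553). Mt1 in L2/3 IT was not called without replicate 1 (adjusted p 0.0542), Mt3 in L2/3 IT without 1, 4 or 5, Mt1 in L5 IT without 1 or 3 and Mt3 in L5 IT without 5.

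In intratelencephalic neurons of layer 6 (L6 IT) Mt3 was called at -0.82 (adjusted p 0.0023, edgeR) and Mt1 and Mt2 were not (adjusted p 0.081 and 0.296). Without replicate 5 the Mt3 difference was -0.62 and not called (adjusted p 0.173, edgeR with the block), in a fit that called 1 of 6679 genes lower. With the count filter and without the block no subclass had a call, and 0% of the genes tested were lower in each. With it, 0.417% of genes were called lower in Rank1 in L2/3 IT, 0.315% in L5 IT, 0.137% in L5 PT, 0.64% in L6 CT and 0.0877% in L6 IT. Leaving out L5/6 NP, 14 of 14 member tests were lower in Rank1, 12 had an unadjusted p under 0.05, edgeR and DESeq2 called 0 without the block (smallest adjusted p 0.270, edgeR), and edgeR called 12 with it. Of all genes tested in these subclasses, 47.7% to 52.1% were lower in Rank1, and their share with such an unadjusted p is not given here. Without a count filter edgeR called 7 without the block, Mt1 and Mt2 in L2/3 IT, Mt2 in L5 IT and Mt1 and Mt3 in L5 PT and L6 CT, where 0.13%, 0.0432%, 0.0309% and 0.0377% of genes were called lower. When both libraries of 1 replicate number were left out, edgeR with the block called from 6 (without replicate 1) to 12 (without replicate 2). Over all genes, those called lower without replicate 1 were 6 of 9198 in L2/3 IT, 9 of 9584 in L5 IT, 11 of 8032 in L5 PT, 21 of 10438 in L6 CT and 6 of 7996 in L6 IT. In the same order they were 95 of 9336, 26 of 9909, 11 of 7748, 61 of 9532 and 5 of 8790 without replicate 2.

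**Figure D4:**
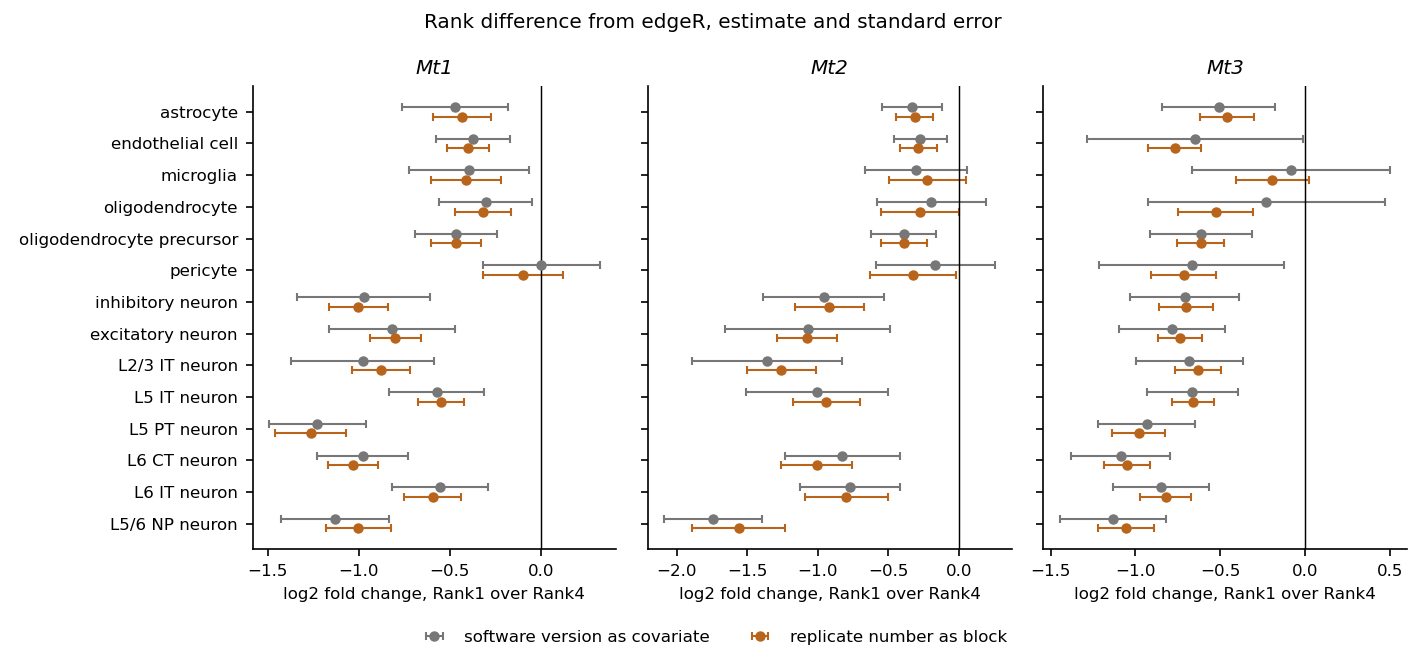
Log2 difference of Rank1 from Rank4 for Mt1, Mt2 and Mt3 in each class and subclass, with its standard error, without and with the replicate block. Nearly all points lie below 0, and the standard errors are shorter with the block; L5/6 NP, which the genes were chosen by, is shown as a description.

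Markers of astrocytes moved with these differences in neurons. The 8 markers summed were lower in Rank1 in 5 of 5 pairs in inhibitory neurons, with a range of 224 to 680 CPM in Rank1 and 428 to 911 CPM in Rank4. In L5 PT neurons the sum was lower in 3 of 3 pairs (173 to 444 CPM against 384 to 634 CPM), and the markers called lower with the block included Slc1a2 and Aldoc (adjusted p 0.0229 and 0.0207, edgeR). At least 1 of Agt, Aqp4, Gja1 and Gjb6 was at 0 in 5 of the 7 L5 PT libraries, and at least 1 marker of the list in 8 of 10 inhibitory neuron libraries. Aldoc was also called lower in L2/3 IT and L6 CT (adjusted p 0.0219 and 0.0335, edgeR). The part of astrocyte RNA in the neuronal metallothionein differences was not tested.

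In excitatory neurons as a whole the marker sum was lower in Rank1 in 3 of 5 pairs, from 316 to 1338 CPM in Rank1 and 298 to 1333 CPM in Rank4, with Agt at 0 in 3 libraries. In endothelial cells it was also lower in 3 of 5 pairs, 295 to 930 CPM against 386 to 1471 CPM, with Agt, Aqp4 or Gjb6 at 0 in 8 libraries. Taken singly, all 7 tested markers in excitatory neurons, 5 in endothelial cells and 4 in inhibitory neurons had a lower fitted level in Rank1, and none was called in these 3 classes. In astrocytes themselves the marker sum ran the other way, and was higher in Rank1 in 5 of 5 pairs (15762 to 26461 CPM against 15290 to 25846 CPM), while Mt1 and Mt2 were lower. The 7 excitatory-neuron markers summed were lower in Rank1 in astrocytes in 5 of 5 pairs, from 147 to 810 CPM (median 344) in Rank1 and 164 to 903 CPM (median 632) in Rank4. In endothelial cells that sum was lower in 4 of 5 pairs, from 85.2 to 812 CPM (median 238) against 84.5 to 1115 CPM (median 615). In inhibitory neurons that sum was also lower in 4 of 5 pairs, from 166 to 606 CPM (median 360) against 177 to 747 CPM (median 636). The part of excitatory-neuron RNA in the rank differences was not tested.

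Short transcripts were more often lower in Rank1 in astrocytes, which is given as a description with no test of the group. The median annotated transcript length was 633 bases for Mt1, 449.5 for Mt2 and 477 for Mt3. In astrocytes, 197 genes with a length of up to 600 bases and at least 50 CPM had a median difference of -0.22 in mean log2(CPM + 1), and 79.7% of them were lower in Rank1. The 535 genes longer than 4000 bases had a median of 0.05, and 37.8% of them were lower. On this scale Mt1 was at -0.42, Mt2 at -0.30 and Mt3 at -0.45, beyond the median of the short genes.

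In excitatory neurons the 187 short genes had a median of -0.18 and the 864 genes over 4000 bases one of 0.03, beside -0.77, -1.02 and -0.71 for Mt1, Mt2 and Mt3. In endothelial cells the short genes stood at -0.06 and the long ones at 0.06, beside -0.38, -0.26 and -0.75. In inhibitory neurons the 204 short genes stood at -0.20, with 78.9% of them lower in Rank1, and the long ones at 0.01, beside -1.0, -0.85 and -0.66. In pair 2 the short genes held nearly equal shares of the astrocyte UMIs. Their shares were 5.76%, 5.92%, 6.20%, 2.93% and 4.47% in Rank1 replicates 1 to 5, and 6.74%, 5.91%, 6.72%, 3.97% and 5.40% in Rank4. Replicate 4, lowest for the metallothioneins in both ranks, was the lowest here too. This grouping by length was chosen after the values had been seen, and the part of transcript length in the rank differences was not tested.

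**Figure D5:**
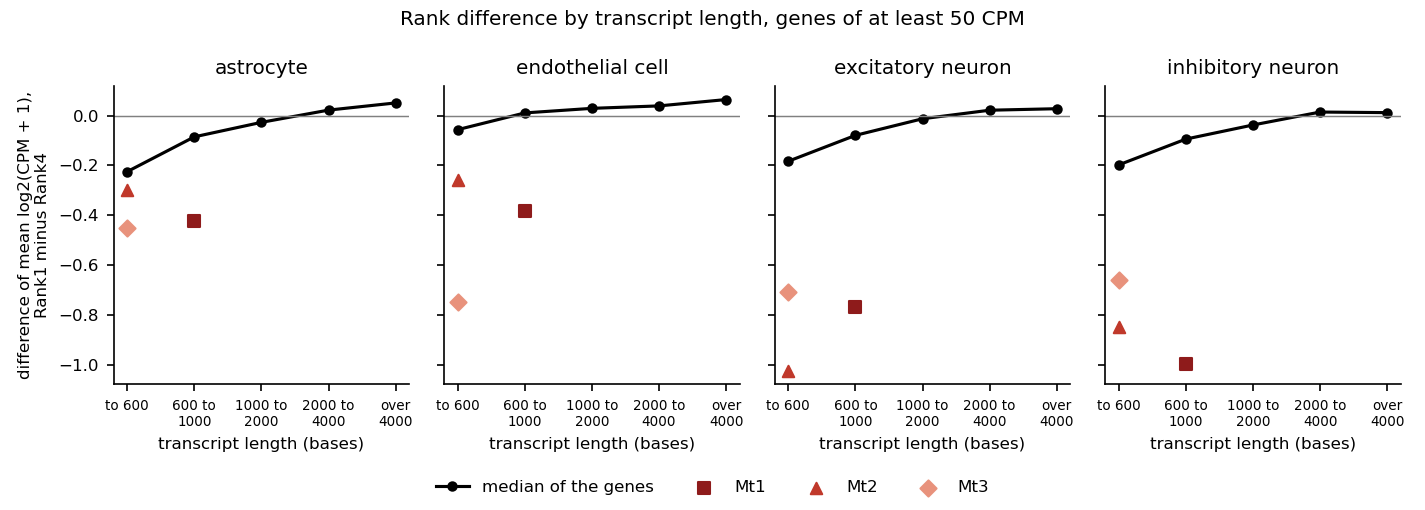
Median difference between ranks in mean log2(CPM + 1) for genes grouped by annotated transcript length, with Mt1, Mt2 and Mt3 at their own lengths. In astrocytes the medians climb from -0.22 for genes up to 600 bases to 0.05 for genes over 4000 bases, and the metallothioneins lie below them.

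Over the 10 astrocyte libraries, 14 of the 15 genes most like the members were shorter than the median of 1754.5 bases over 3635 genes. For Mt1 they were Mrps21 (a mitochondrial ribosome protein, r 0.99), Selenow (0.99), Bola1, Dpm3 and Chchd1, with lengths of 405 to 736 bases. For Mt2 they were Sem1 (0.99), Cox6a1, Nop10, Minos1 and 2010107E04Rik, with lengths of 435 to 2549 bases, and for Mt3 Edf1 (0.98), Atp5d, Rwdd1, Pdcd5 and Prdx5 (a peroxiredoxin, 0.94), with lengths of 717 to 1090 bases. The median r over 3650 genes was 0.20 for Mt1 and 0.14 for Mt2 and Mt3, and the leading genes were chosen as the highest of these.

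Other genes of metal handling had no common direction across classes. Of 36 genes listed for zinc and copper handling, 27 were tested in astrocytes, 0 were called in either direction by edgeR without or with the block, 15 were higher and 12 lower, and 1 had an unadjusted p under 0.05. Their median log2 difference was 0.07, beside -0.02 over all genes tested. Lower in Rank1 were 14 of 28 tested genes of the list in excitatory neurons, 14 of 22 in inhibitory neurons (median -0.08), 6 of 8 in oligodendrocytes (-0.16) and 6 of 9 in pericytes (-0.26), against 7 of 18 in endothelial cells and 4 of 13 in microglia. In astrocytes the zinc exporter gene Slc30a5 had 0.63 (standard error 0.23) and Atox1, the copper chaperone, -0.43 (0.22). Mtf1, the gene of the metal-responsive factor, had 0.37 (0.25).

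Atox1 had the smallest unadjusted p of this list in 5 other classes: the log2 difference was -0.59 in excitatory neurons, -0.56 in inhibitory neurons, -0.73 in microglia, -0.78 in oligodendrocytes and -0.37 in oligodendrocyte precursors. With the block it was called lower in excitatory neurons (-0.57, adjusted p 0.0246), L2/3 IT (-0.65, adjusted p 0.0262) and L6 CT (-0.77, adjusted p 0.00715) by edgeR's quasi-likelihood test. In endothelial cells the ceruloplasmin gene Cp led the list with 0.54, and in pericytes Slc30a10 with 0.53. Atox1 was the only gene of the list called in any class or subclass outside L5/6 NP.

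Genes that glucocorticoids induce were mostly lower in Rank1 astrocytes, in 12 of 13 tested, with a median of -0.24. Arl4d had -1.41 and Cdkn1a, a cell cycle inhibitor, -1.01 without the block and no gene was called. With the block Arl4d (-1.39, adjusted p 0.00444) and Tsc22d3, which encodes GILZ (-0.62, adjusted p 0.0142, both edgeR), were called lower. In all genes tested in astrocytes, 52.7% were lower.

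Of 12 tested genes of the Nrf2 oxidative response in astrocytes, 5 were higher and 7 lower, with 0.43 for the cystine transporter gene Slc7a11 and 0.33 for Keap1. Of 5 tested genes of the Stat3 and reactive astrocyte list, 4 were higher, led by Gfap (0.84) and Vim (0.42). Among 15 genes of heat shock and dissociation, 12 were lower, led by Dnajb1 (-0.67), a chaperone gene, and Junb (-0.44). None of these 3 lists had a call in astrocytes with or without the block. These lists were drawn up with earlier results of the same libraries known.

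Outside astrocytes these lists had calls with the block in endothelial cells and excitatory neurons. In endothelial cells Tsc22d3 was lower in Rank1 (-0.52, adjusted p 0.0309), as was the chaperone gene Hsph1 (-0.65, adjusted p 0.0201, edgeR). In excitatory neurons Cdkn1a was lower (-0.77) and Btg2, an immediate early gene, higher (0.70, adjusted p 0.0246 for both, edgeR). Cdkn1a was also lower in L2/3 IT (-1.11, adjusted p 0.0262, edgeR). Btg2 was higher in L5 IT (0.61), L6 CT (1.17) and L6 IT (0.95), with adjusted p 0.0413, 1.08e-05 and 0.000522 by edgeR. Egr1, an activity-induced factor gene, was lower in L2/3 IT (-0.96) and L5 IT (-0.79), with adjusted p 0.000689 and 0.00188 by edgeR.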

How the data were processed

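The authors deposited raw counts of UMIs per gene and cell barcode for 10 libraries. The submitters' processing notes name Cell Ranger 4.0.0 and the build mm10, while the matrix headers give version 3.1.0 for replicates 1 to 3 of both ranks and version 4.0.0 for the others. Both gene lists shared 30406 genes, and only these were used. Cell calling settings and strand are not given in the sources used here.

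Barcodes with at least 500 genes and at most 15% mitochondrial UMIs were kept. Doublet scores were computed per library, and because the histogram threshold of the caller marked from 0.0099% to 3.55% of barcodes, the highest-scoring 0.8% per 1000 barcodes of the library was removed instead. Cells were clustered (2000 variable genes, 30 components, resolution 1, igraph 0.11.9) without Mt1, Mt2 and Mt3, and clusters were named from marker genes, so names stand for cells resembling a class and may differ from the authors'. Counts were summed per library and class with at least 20 cells and tested over all genes with edgeR 4.0.16 in R 4.3.3 (quasi-likelihood test, TMM, filterByExpr, software version as covariate, Benjamini-Hochberg adjusted p under 0.05). The standard error given with a log2 difference is the size of that difference over the square root of the test's F value, so it follows from the test. DESeq2 1.42.0 was an alternative. L5 PT, L5/6 NP and L6 CT were tested in fewer than 10 libraries. The UMI counts behind a level and the number of libraries limit its precision. The fit was also run on simulated data, whose outcome is not given here and is not used as support.

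Numbers were taken as pairing the libraries, since deviations from the group means of same-numbered libraries correlated at 0.830, 0.913, 0.875, 0.941 and 0.929 for replicates 1 to 5 over all kept cells, 4278 genes. With means taken within a software version these were 0.831, 0.639 and 0.417 for replicates 1 to 3 and 0.365 for replicates 4 and 5, where 2 libraries per rank give a single value. In excitatory neurons that value was 0.20. Of 10 libraries, 8 correlated best with their own number over all kept cells, and 7 in astrocytes and in excitatory neurons. The labels do not say what a number marks. Where 1 partner was missing, the other library added nothing to the blocked difference.

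The members, lists and tests were chosen with earlier results of these data known. Named besides the members are the 5 genes most like each over classes and over astrocyte libraries, the 2 genes of each list with the smallest unadjusted p in astrocytes, the zinc and copper gene with the smallest in each other class, list genes called with the block and, chosen after values were seen, Mtf1. Alternatives changed 1 choice at a time: normalization, count filter, covariate, block, libraries, cell filter, doublets, resolution and cell minimum; blocked fits without 1 replicate number and excitatory neurons without L5/6 NP cells were added after seeing the data. The values of 1 astrocyte marker are not reported here singly. Transcript lengths are medians over protein-coding transcripts of GENCODE M21.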

Additional observations from a re-analysis of the deposited data

Results flagged for a closer look

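In 113 groups of 4 to 10 libraries, the highest or lowest library stood apart from the others in 4; chance alone gives about 1 in 20. Mt1 in astrocytes was low in Rank4 replicate 4 (2674 CPM), and Mt3 was low in Rank1 replicate 4 both in astrocytes (1337 CPM) and in excitatory neurons (147 CPM). The Mt1 share of Mt1 and Mt2 UMIs in L6 CT neurons was low in Rank4 replicate 1 (77.4%).

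Smooth muscle cells ran opposite to the groups that were lower in Rank1 in every pair. Mt1 was 3595 and 3743 CPM in Rank1 replicates 2 and 3, above 2442, 2535 and 792 CPM in Rank4 replicates 2 to 4, and the ratio of the rank means was 1.91. For Mt2 the ratio was 1.86. Rank4 replicate 4, the lowest, had no partner, and over the 2 pairs alone the ratios were 1.47 and 1.42. Only 374 cells in 5 libraries carry these values, and the difference from the other classes was not tested.

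Gm45774, on the strand opposite to Mt2, had 66 UMIs in all kept cells, beside 27547 for Mt2.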

How the results depend on the processing

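Of 865 recomputed rank differences of the members outside L5/6 NP neurons, 841 were lower in Rank1 and 21 changed sign. With the replicate block edgeR called 5 of the class tests and 12 of the subclass tests; of the members outside L5/6 NP the block changed no other call. Without a count filter edgeR called 4 and 7, and without Rank1 replicate 5 it called 2 in subclasses; leaving out 1 library gave 0 calls in classes and 0 to 2 in subclasses. Without both libraries of 1 replicate number, an alternative chosen after seeing the data, the blocked fit called 1, 6, 2, 4 and 3 of the class tests and 6, 12, 10, 7 and 8 of the subclass tests without replicates 1 to 5; without the L5/6 NP cells, also added then, it called 5 of the class tests. Log2 differences that changed sign were Mt1 in pericytes (-0.10 with the replicate block, -0.0495 without a filter, -0.00744 with DESeq2, -0.22 within replicates 4 and 5; -0.30 to 0.25 leaving out 1 library; with the block -0.42 without replicate 2, -0.157 without 3, -0.0384 without 4 and -0.14 without 5), Mt2 in microglia (0.0603 within replicates 4 and 5), Mt3 in microglia (0.00617 within replicates 1 to 3; -0.90 to 0.54), Mt2 in oligodendrocytes (0.33 within replicates 4 and 5; -0.53 to 0.14), Mt3 in oligodendrocytes (0.0712 within replicates 1 to 3; -1.28 to 0.50) and Mt2 in pericytes (-0.59 to 0.63; 0.56 with the block without replicate 1).

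The rank difference of the Mt1 share changed sign within replicates 1 to 3 in astrocytes (0.632), inhibitory neurons (0.850) and pericytes (3.02 points) and within replicates 4 and 5 in oligodendrocytes (-0.707). Leaving out 1 library it ran from -2.44 to 0.914 in astrocytes, -2.58 to 0.287 in endothelial cells, -0.0816 to 3.81 in excitatory neurons, -2.28 to 0.971 in inhibitory neurons, -0.938 to 3.09 in microglia, -1.45 to 3.13 in oligodendrocytes and -2.0 to 1.48 in pericytes. Correlations that lost their threshold were Mt1 with Mt2 in astrocytes (0.62 within replicates 1 to 3, 0.76 without the 2 farthest libraries), Mt1 with Mt3 in astrocytes (0.50 without them) and excitatory neurons (0.61) and Mt2 with Mt3 in excitatory neurons (0.29, and 0.62 on log2(CPM + 10)); Mt2 with Mt3 in astrocytes turned to -0.11. The causes were not tested.

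Levels of Mt2 in neurons rest on few UMIs, down to 0 in an L6 CT library.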

Other observations

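Metallothionein transcripts were also high in cells that no class claimed. A cluster of 2170 cells led by Oxt, Avp, Bc1, Mt2 and Mbp had 3455 ± 3222 CPM of Mt1, 814 ± 943 CPM of Mt2 and 2985 ± 2048 CPM of Mt3 (mean ± SD over 7 libraries), at a median of 1087 UMIs per cell. Mt1 there ran from 722 to 10222 CPM between libraries. A cluster of 49 cells led by Sfrp1, Gfap and Thbs4, with at least 20 cells in only 1 library, had 4871 CPM of Mt1 and 3573 CPM of Mt3. Among excitatory neurons, an unnamed cluster of 335 cells, whose leading genes included haemoglobin genes and C1qc, had 1054 ± 562 CPM of Mt3 over 5 libraries. A cluster of 46 L6 CT cells, from only 1 library with at least 20 of them, had 1930 CPM of Mt3, while the highest subclass mean, in L5/6 NP, was 474 ± 283 CPM.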
